A study of Mus musculus with 7 samples.

Results

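The 50 genes described here encode the machinery that separates sister chromatids and then divides the cell. They were chosen by name, with earlier results of these data known, as a list of mitosis and sister chromatid genes. Each was matched to its row in the count table through its Ensembl identifier. All 50 were found among the 43629 genes of the table, 1 of them (Sgol1, current symbol Sgo1) through a synonym, and all 50 passed the filter on low counts, which left 18426 genes for testing. By role they comprise 8 entry kinases, cyclins and their regulators, 9 spindle genes, 7 kinetochore and centromere genes, 6 genes of the spindle checkpoint and the anaphase-promoting complex (APC/C), 3 cohesion genes, 6 genes of chromosome condensation and 11 genes of the passenger complex and cytokinesis.

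Cells enter mitosis when the kinase Cdk1 is activated by cyclins. Condensins and topoisomerase compact the chromosomes, cohesin holds sister chromatids together, and kinetochores built on centromeric chromatin attach them to the spindle. The spindle checkpoint holds back the APC/C until every kinetochore is attached. The APC/C then marks securin and cyclin B for destruction, sisters part, and the central spindle and a contractile ring divide the cell. Many of these transcripts rise only late in the cell cycle and are low in cells that have stopped dividing, while mouse embryonic stem (ES) cells divide rapidly.

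Polyadenylated RNA was sequenced from 7 libraries of E14 mouse ES cells (129/Ola background, from blastocysts) and lines carrying an Ago2 knockout. The 3 undifferentiated Ago2-knockout libraries (KO ESC) came from 2 knockout lines, C4 (library C4) and 5-3 (libraries 5-3_1 and 5-3_2), grown in serum with LIF. The 2 wild-type libraries (WT XEN, A and B) and 2 knockout libraries (KO XEN, C4 and 5-3) came from cells kept for 5 days in serum with 0.1 µM retinoic acid and 10 ng/mL activin A, a treatment toward extra-embryonic endoderm (XEN). Wild-type ES cells were not analysed here, so WT XEN against KO ESC changes genotype and state together, and each knockout line is a single labelled line. Levels are CPM, the usual read counts relative to library size, with TMM-scaled library sizes. Library values are listed in the order C4, 5-3_1 and 5-3_2 for KO ESC, A and B for WT XEN, and C4 and 5-3 for KO XEN.

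Ago2 encodes the Argonaute protein that carries microRNAs and can cut matched transcripts (ENSMUSG00000036698, mm10 chromosome 15, 73095844 to 73184935). Its transcript stood at 94.4, 9.37 and 9.65 CPM in KO ESC, 394 and 432 CPM in WT XEN, and 122 and 9.94 CPM in KO XEN. The libraries labelled C4 thus held more Ago2 transcript than those of line 5-3, and the counts are for the whole gene, so they do not show which part of it was altered. Total counts ran from 33389566 to 48650113 in 6 libraries and were 13941826 in KO XEN C4. Mitochondrial transcripts made up 2.79% to 3.26% of counts in KO ESC, with 1.94% and 2.64% in WT XEN and 0.781% and 0.979% in KO XEN. The 9 extra-embryonic endoderm markers summed to 168 to 184 CPM in KO ESC, 22759 and 36663 CPM in WT XEN, and 1671 and 2442 CPM in KO XEN. Of those 9 genes, 8 fell in KO XEN against WT XEN, while against KO ESC 7 were higher in KO XEN and 0 lower. Sox7 (1.52 and 3.11 CPM in KO XEN) and Sox17 (3.19 and 3.23 CPM) were near the foot of the range there. Gata6 (96.6 and 169 CPM) and Dab2 (257 and 336 CPM) were not. The name XEN is used below as the label gives it.

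The mitosis genes were lowest in the differentiated knockout cells, in every role. Together they took 0.893% to 1.12% of all counts in KO ESC, with 0.489% and 0.613% in WT XEN and 0.131% and 0.12% in KO XEN. Against WT XEN, 48 of the 50 fell in KO XEN and 0 rose, where 23.9% of all genes tested were called lower and 22.3% higher (edgeR quasi-likelihood test, Benjamini-Hochberg adjusted p below 0.05, a threshold used throughout). The median log2 fold change of the 50 was -2.13, a 4.36-fold lower level, beside 0.00 for all genes tested. The 2 genes that did not pass were the kinase Cdk1 and the spindle gene Ckap2. Falls ran from -0.73 for Cdc20 to -5.25 for Cenpf on the log2 scale. In bulk RNA, fewer dividing cells and less of these transcripts per dividing cell cannot be told apart. Kif18a, Nusap1, Ube2c, Kif4, Ccna2, Cdc20, Cdca8, Ncapg, Prc1, Kif20a and Cdc25c overlap a coding gene on the opposite strand, so their counts depend on how strand was used in the counting.

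Against KO ESC, all 50 genes fell in KO XEN, with a median log2 fold change of -2.89 beside -0.08 for all genes (background 34.3% lower, 34.8% higher). In WT XEN against KO ESC, 35 were lower, 0 were higher and 15 did not pass, with a median of -0.70 beside -0.03 (background 30.3% lower, 32.2% higher). That count was 22 without WT XEN A, which leaves only library B in its group. These 3 comparisons share libraries in pairs, so their counts are not independent of each other. In 48 of 50 genes both KO XEN libraries lay below both WT XEN libraries, as in 38.3% of all genes, and in 41 both WT XEN libraries lay below all KO ESC libraries, as in 37.7%. The full order of KO XEN below WT XEN below KO ESC without overlap held for 39 of the 50 genes (78.0%) and for 13.2% of all genes tested.

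**Figure D1:**
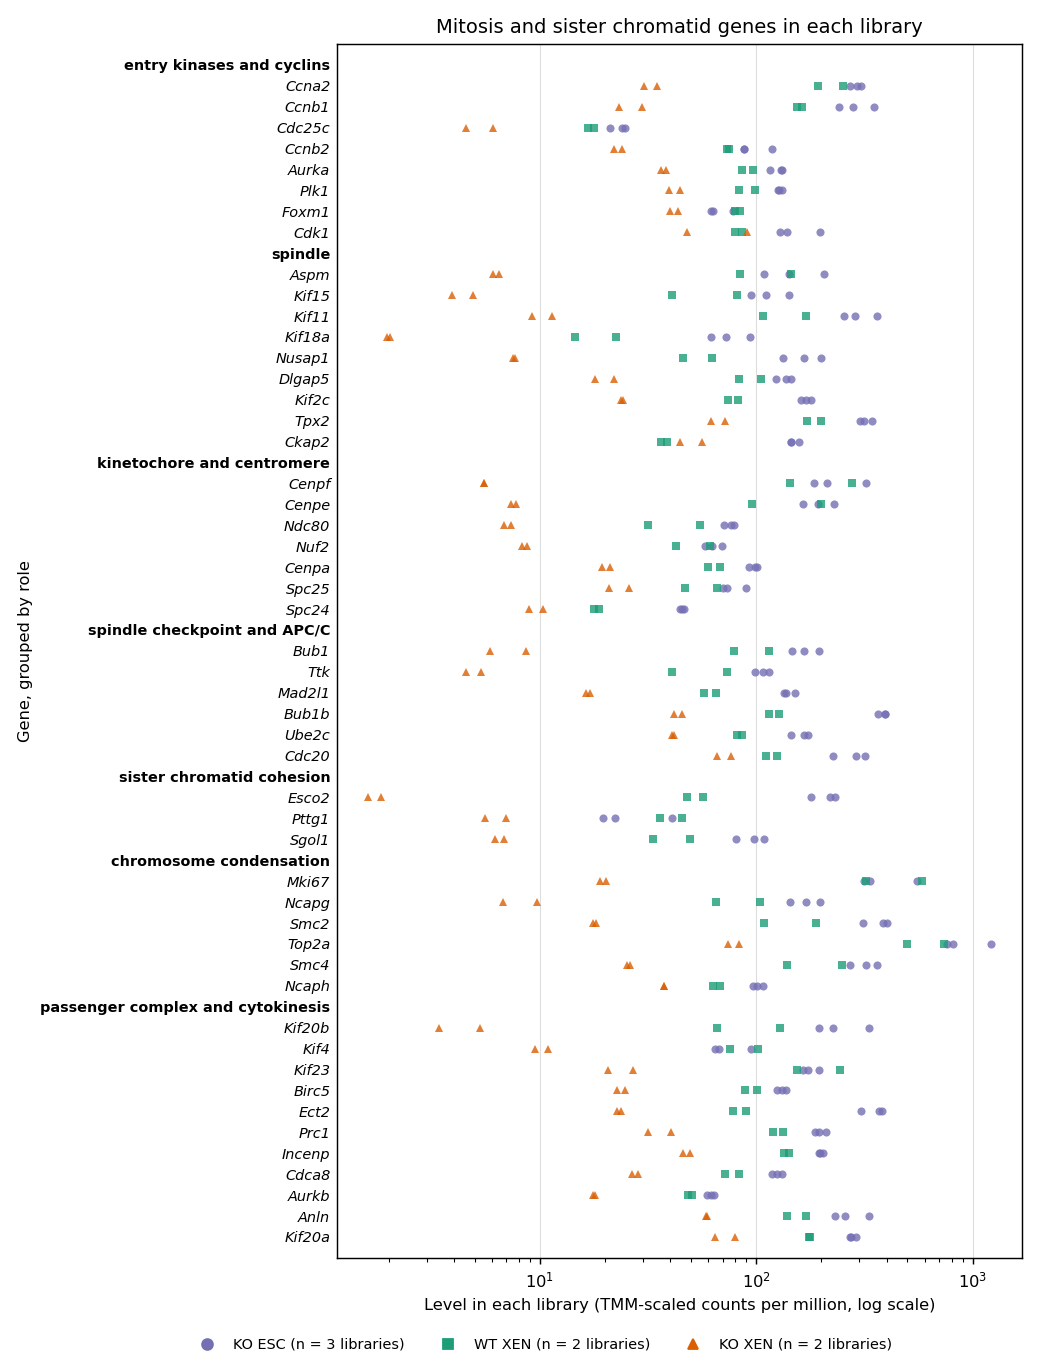
Level of each of the 50 genes in each of the 7 libraries, in TMM-scaled CPM on a logarithmic axis. Rows are genes grouped by role and points are libraries (circles KO ESC, squares WT XEN, triangles KO XEN). The KO XEN triangles stand to the left of the WT XEN squares in 48 rows, and Cdk1 and Ckap2 are the exceptions.

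Other features of the KO XEN libraries moved with these genes. The 8 fibroblast markers summed to 14.1 to 24.2 CPM in KO ESC, 737 and 327 CPM in WT XEN, and 2576 and 4120 CPM in KO XEN. Most of the KO XEN sum was Col1a1, at 1469 and 2119 CPM, and Col3a1, at 942 and 1733 CPM. In KO XEN against WT XEN, 5 of 8 were called higher and 1, Col1a2, lower (-2.06). Of all genes tested, 22.3% were higher and 23.9% lower in that comparison, the background for the marker lists. Col3a1 and Postn were at 0 in every KO ESC library. The 6 neural markers summed to 84.7 to 108 CPM, 87.7 and 58.1 CPM, and 530 and 458 CPM in the same group order. Most of the KO XEN sum was Nes, at 425 and 331 CPM. Against WT XEN, 4 of the 6 were higher in KO XEN and 0 lower. Against KO ESC, 3 were higher and 1, Sox1, was lower. The 8 pluripotency markers summed to 5840 to 5968 CPM in KO ESC, 886 and 936 CPM in WT XEN, and 70.3 and 96.8 CPM in KO XEN. The 5 trophoblast markers summed to 4.01 to 6.29 CPM in KO ESC, 31.0 and 16.4 CPM in WT XEN, and 139 and 77.5 CPM in KO XEN. Against WT XEN, 2 of them (Gata3 and Krt7) were higher in KO XEN and 1 (Cdx2) was lower. The 5 blood and endothelial markers summed to at most 108 CPM in any library. Cdx2 and Ptprc were at 0 in both KO XEN libraries. The part that the makeup of cell types, or the lower mitochondrial share, has in the mitosis genes' fall was not tested.

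Transcript composition also moved with the fold change. Over 15221 coding genes the log2 fold change of KO XEN against WT XEN rose with the GC content of the transcript (Spearman rho 0.34, a description across genes, which are not replicates). Coding genes outside the 50 had a median of -1.17 at a GC content up to 40% and of 0.57 above 55%. The mitosis genes are GC-poor, with a median of 44.8% beside 50.1% for coding genes. Within each of 6 GC ranges they stood lower than the other coding genes, with medians of -3.35 for the 5 genes up to 40%, -1.69 for the 13 genes from 46% to 50% (others -0.08) and -1.02 for the 3 genes above 55%. With a per-library offset for GC content and length, added after the data were seen, 48 of the 50 were still called lower and 1, Ckap2, higher (background 21.8% and 22.6%), and the median was -1.84. Among the 50, rho was 0.63 with GC content and -0.58 with transcript length, while over all coding genes rho with length was -0.03. The longest transcripts, of Cenpf (11130 bases), Mki67 (10061 bases), Aspm (9867 bases) and Cenpe (7910 bases), were among those that fell most, and with the offset their log2 fold changes were -4.59, -4.26, -3.66 and -3.60. The next longest, of Mad2l1 (7557 bases), had a log2 fold change of -1.87, and of -0.92 with the offset.

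**Figure D2:**
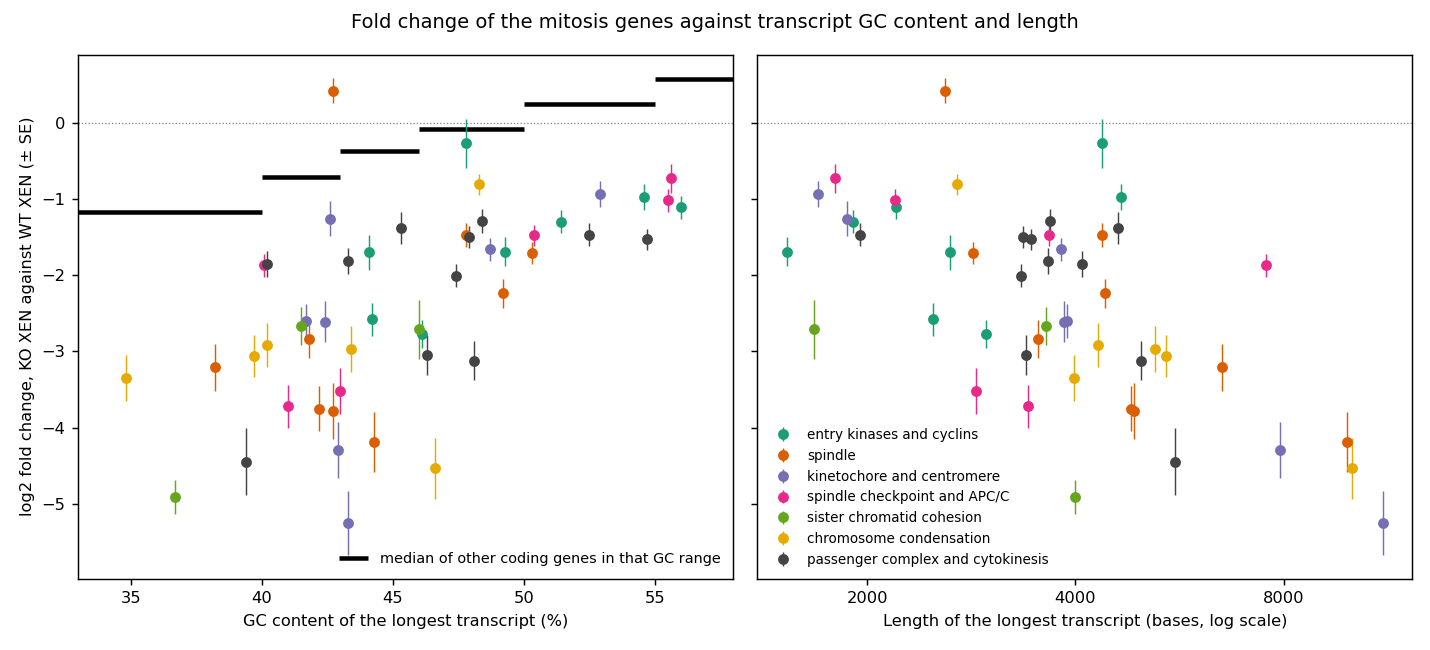
Log2 fold change of KO XEN against WT XEN for each of the 50 genes (points ± SE, coloured by role) against the GC content of its longest transcript in percent (left) and its length in bases on a logarithmic axis (right). Black bars on the left are medians of the other coding genes in each GC range, from -1.17 to 0.57. Of the 50 genes, Ckap2 alone lies above the bar for its GC range.

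Promoters of these genes are known for a shared pair of elements. The cell cycle genes homology region (CHR, TTTGAA or TTCGAA) is bound by MuvB complexes, which repress in resting cells as DREAM and activate late in the cycle with B-MYB and FOXM1, and the CCAAT box is bound by NF-Y. RefSeq windows (GRCm38.p6) from 250 bases before to 50 after the annotated start were at hand for 39 of the 50 genes. Both strands were searched, and a window with either form of the CHR was counted once. A CHR was found in 32 of the 41 windows of these 39 genes (78.0%), beside 19.2% of 32851 windows of all genes. A CCAAT box was found in 70.7% beside 37.4%, and both elements in 65.9% beside 7.52%. Within 50 bases of the start, a CHR was found in 29 of 41 windows (70.7%) and in 5.31% of all windows. A match in the letters is a description and shows no binding. The windows of Nuf2, Kif18a, Nusap1, Ncaph, Cenpe, Mad2l1, Pttg1, Birc5 and Ccnb1 held no CHR. All 9 genes fell in KO XEN against WT XEN, as did 48 of all 50, and a link of the fall to the CHR was not tested. The Pttg1 window lies inside the gene as GENCODE draws it, which ends at 43426251. That of Mad2l1 ends at 66535270, before the GENCODE start at 66535390.

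The sequences below show how the elements lie in the 120 bases before the start of 5 genes from the 3 largest role groups, 5′ to 3′ on the gene's strand. Capitals mark a CHR (TTTGAA, or TTCAAA when it lies on the other strand) and CCAAT boxes (CCAAT, or ATTGG on the other strand). Kif11, Prc1 and Cdk1 carry a CCAAT box some bases ahead of a CHR near the start. Ect2 has a CHR farther out in this stretch and another, not printed, 40 bases after the start, Kif2c has a CHR without a CCAAT box (its RefSeq start lies inside the gene as GENCODE draws it, which ends at 117182639), and Cdk1, which did not pass the test in KO XEN against WT XEN, carries 2 of each element.
Kif11 (chr19:37376262-37376381, plus strand): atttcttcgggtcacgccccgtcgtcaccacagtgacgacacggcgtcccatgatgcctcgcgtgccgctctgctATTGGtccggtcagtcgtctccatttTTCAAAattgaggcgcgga
Kif2c (chr4:117178773-117178892, minus strand): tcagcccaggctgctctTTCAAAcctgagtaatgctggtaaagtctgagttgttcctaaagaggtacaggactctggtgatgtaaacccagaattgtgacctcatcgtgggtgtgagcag
Prc1 (chr7:80294356-80294475, plus strand): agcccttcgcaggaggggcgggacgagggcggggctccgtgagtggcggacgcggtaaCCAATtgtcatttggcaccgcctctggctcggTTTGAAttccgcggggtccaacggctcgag
Ect2 (chr3:27153879-27153998, minus strand): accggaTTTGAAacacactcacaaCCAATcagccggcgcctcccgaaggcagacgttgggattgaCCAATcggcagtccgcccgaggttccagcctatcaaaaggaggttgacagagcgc
Cdk1 (chr10:69352913-69353032, minus strand): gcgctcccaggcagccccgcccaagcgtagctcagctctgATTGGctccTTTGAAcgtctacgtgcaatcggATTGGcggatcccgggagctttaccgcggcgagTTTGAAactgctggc

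Among the entry kinases and cyclins, 7 of 8 fell in KO XEN against WT XEN, with a median log2 fold change of -1.49. Ccna2, the cyclin that acts from DNA replication into mitosis, stood at 292, 270 and 306 CPM in KO ESC, 193 and 251 CPM in WT XEN, and 34.6 and 30.4 CPM in KO XEN. Both KO XEN libraries lay far below the rest, and WT XEN lay close under KO ESC. Its log2 fold change against WT XEN was -2.77 ± 0.18 (edgeR adjusted p = 0.000131), and WT XEN against KO ESC did not pass (-0.38 ± 0.16, adjusted p = 0.0643). Ccnb1, the main mitotic cyclin, stood at 350, 279 and 242 CPM, 162 and 154 CPM, and 29.5 and 23.3 CPM. Its 3 groups did not overlap, and its log2 fold change against WT XEN was -2.58 ± 0.22 (edgeR adjusted p = 0.000202). Its relative Ccnb2 stood at 118, 87.7 and 87.8 CPM, 74.6 and 73.6 CPM, and 24.0 and 22.1 CPM (-1.69 ± 0.19, edgeR adjusted p = 0.00048).

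Cdk1 itself (ENSMUSG00000019942, chromosome 10, 69335146 to 69352938) stood at 198, 139 and 129 CPM in KO ESC, 79.5 and 85.9 CPM in WT XEN, and 90.4 and 47.6 CPM in KO XEN. The 2 KO XEN libraries fell on either side of WT XEN, with C4 above and 5-3 below. The log2 fold change was -0.27 ± 0.32 (edgeR adjusted p = 0.524). It was 0.04 without KO XEN 5-3, and without both C4 libraries Cdk1 was called lower (-0.80, adjusted p = 0.017). Against KO ESC it was lower in both KO XEN (-1.18 ± 0.30, edgeR adjusted p = 0.00824) and WT XEN (-0.91 ± 0.29, adjusted p = 0.0269). Plk1 and Aurka, kinases of the centrosome and spindle poles, fell by 1.11 and 1.30 on the log2 scale against WT XEN. Cdc25c, the phosphatase that activates Cdk1, had the lowest level per length of the group, at most 5.00 RPKM (CPM divided by exon length in kilobases), and fell by 1.70. Foxm1, the transcription factor that drives many of these genes, stood at 78.0, 63.4 and 61.8 CPM in KO ESC, 79.4 and 83.9 CPM in WT XEN, and 43.5 and 40 CPM in KO XEN. It was the only one of the 50 with both WT XEN libraries above all KO ESC libraries. That difference did not pass (0.27 ± 0.15, edgeR adjusted p = 0.156), and Foxm1 fell in KO XEN by 0.97 against WT XEN. With the GC and length offset the falls against WT XEN were larger for Plk1 (-1.49) and Foxm1 (-1.44).

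Of the 9 spindle genes, 8 fell in KO XEN against WT XEN, with a median of -2.84. Lower in WT XEN than in KO ESC were 8, beside 30.3% of all genes tested. Kif11, the kinesin that pushes spindle poles apart, stood at 361, 254 and 286 CPM in KO ESC, 108 and 170 CPM in WT XEN, and 9.15 and 11.4 CPM in KO XEN. The groups were well apart, and the log2 fold change against WT XEN was -3.75 ± 0.29, a 13.4-fold lower level (edgeR adjusted p = 0.000176). Kif15, a kinesin with a similar task, fell by 3.78, from 41.0 and 81.7 CPM in WT XEN to 3.92 and 4.89 CPM in KO XEN. Kif2c, which depolymerises microtubules at centromeres, stood at 180, 170 and 161 CPM, 74.1 and 82.4 CPM, and 23.7 and 24.2 CPM (-1.71 ± 0.15, edgeR adjusted p = 0.000202). Dlgap5, a microtubule-bundling protein, stood at 145, 124 and 137 CPM, 82.9 and 105 CPM, and 21.9 and 17.9 CPM (-2.24 ± 0.19, adjusted p = 0.000202).

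Tpx2, the activator of Aurora A on the spindle, had the highest level per length of the spindle group (73.1 RPKM in its highest library) and one of its smaller falls, -1.47 ± 0.16. Kif18a, which limits microtubule growth at kinetochores, was the lowest per length (at most 9.55 RPKM), at 93.9, 62.0 and 72.4 CPM in KO ESC, 14.5 and 22.5 CPM in WT XEN, and 1.96 and 2.03 CPM in KO XEN. Nusap1, a microtubule-associated protein, fell in KO XEN by 2.84 and was 1.62 lower in WT XEN than in KO ESC. Aspm, a spindle pole protein known for its role in brain size, stood at 205, 109 and 141 CPM in KO ESC, 84.0 and 145 CPM in WT XEN, and 6.46 and 6.06 CPM in KO XEN. Its WT XEN libraries overlapped KO ESC (-0.41 ± 0.31, edgeR adjusted p = 0.274), and it fell in KO XEN against WT XEN by 4.19. The GC and length offset gave log2 fold changes against WT XEN of -2.99 for Kif11, -3.07 for Kif15, -2.01 for Kif18a and -2.07 for Nusap1.

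Ckap2, a microtubule-stabilising spindle protein (ENSMUSG00000037725, chromosome 8, 22168160 to 22185819), ran against the others. It stood at 144, 144 and 157 CPM in KO ESC, 38.5 and 36.4 CPM in WT XEN, and 56.0 and 44.2 CPM in KO XEN. Both KO XEN libraries lay above both WT XEN libraries, and the log2 fold change of 0.42 ± 0.16 did not pass (edgeR adjusted p = 0.0679). With the offset for GC content and length it was 1.06 and passed (adjusted p = 0.00203). Ckap2 was 1.98 lower in WT XEN than in KO ESC (SE 0.16, edgeR adjusted p = 3.21e-05), one of the larger differences of the 50 in that comparison.

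All 7 kinetochore and centromere genes fell in KO XEN against WT XEN, with a median of -2.60. In WT XEN against KO ESC 3 of 7 were lower, a share not far above the 30.3% of all genes tested. Cenpf, a large protein of the outer kinetochore (ENSMUSG00000026605, chromosome 1, 189640606 to 189688086), had the largest fall of all 50. It stood at 322, 184 and 213 CPM in KO ESC, 143 and 276 CPM in WT XEN, and 5.52 and 5.51 CPM in KO XEN. WT XEN overlapped KO ESC, whereas the 2 knockout lines ended at almost the same low level, 38.0-fold below WT XEN (log2 fold change -5.25 ± 0.42, edgeR adjusted p = 0.000193). Cenpe, the kinesin that carries chromosomes to the spindle equator, stood at 228, 164 and 192 CPM, 95.6 and 200 CPM, and 7.77 and 7.35 CPM (-4.29 ± 0.37, edgeR adjusted p = 0.000211). Its WT XEN libraries differed from each other more than the KO ESC libraries did, and the difference between those groups did not pass (-0.39 ± 0.29, adjusted p = 0.27).

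Cenpa, the histone variant that marks the centromere, stood at 101, 92.9 and 98.8 CPM in KO ESC, 59.8 and 68.0 CPM in WT XEN, and 19.3 and 21.0 CPM in KO XEN, and fell by 1.66 against WT XEN. The NDC80 complex, which grips microtubules, fell unevenly. Nuf2 stood at 62.4, 58.1 and 69.2 CPM, 42.7 and 60.9 CPM, and 8.28 and 8.74 CPM (-2.60 ± 0.22, edgeR adjusted p = 0.000199), and Ndc80 fell by 2.61. The partners that anchor them to the kinetochore fell less, Spc25 by 1.26 and Spc24 by 0.93. Per length, Ndc80 made up 17.6% to 19.5% of the complex's summed RPKM in KO ESC, with 14.5% and 18.6% in WT XEN and 8.51% and 7.71% in KO XEN. Spc25 made up 36.1% to 40.9%, 43.7% and 45.1%, and 53.1% and 55.6%. In both KO XEN libraries the share of Ndc80 was below, and that of Spc25 above, those of all other libraries. Log2 fold changes with the GC and length offset were -1.88 for Ndc80, -1.82 for Nuf2, -0.59 for Spc25 and -1.07 for Spc24.

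All 6 genes of the spindle checkpoint and the APC/C fell in KO XEN against WT XEN (median -1.68). All 6 were lower in WT XEN than in KO ESC (median -1.08), beside 30.3% of all genes tested. Bub1, the kinase that loads checkpoint proteins onto kinetochores, stood at 196, 147 and 166 CPM in KO ESC, 78.9 and 115 CPM in WT XEN, and 5.88 and 8.61 CPM in KO XEN. Its log2 fold change against WT XEN was -3.72 ± 0.28 (edgeR adjusted p = 0.000165). The checkpoint kinase Ttk stood at 115, 98.8 and 107 CPM, 40.6 and 73.5 CPM, and 4.57 and 5.32 CPM (-3.52 ± 0.30, edgeR adjusted p = 0.000202). Both kinases had larger falls than the inhibitors of the APC/C, a contrast between genes that was not tested. Mad2l1, which binds and blocks the APC/C activator, stood at 134, 137 and 151 CPM, 57.4 and 64.9 CPM, and 16.3 and 17.1 CPM (-1.87 ± 0.15, adjusted p = 0.000196).

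Bub1b, the pseudokinase that joins it in the inhibitory complex, fell by 1.48 against WT XEN and was 1.65 lower in WT XEN than in KO ESC. Cdc20, that APC/C activator, had the highest level per length of all 50 genes (170 RPKM in its highest library) and the smallest fall among those called. It stood at 226, 318 and 290 CPM in KO ESC, 125 and 111 CPM in WT XEN, and 76.3 and 65.9 CPM in KO XEN (-0.73 ± 0.19, edgeR adjusted p = 0.0168). Without KO XEN 5-3 it did not pass (adjusted p = 0.0876). Ube2c, the ubiquitin-conjugating enzyme of the APC/C, stood at 166, 174 and 145 CPM, 85.6 and 81.6 CPM, and 40.6 and 41.7 CPM, and fell by 1.02. Under the GC and length offset the log2 fold changes against WT XEN were -2.87 for Bub1, -2.87 for Ttk and -0.92 for Mad2l1. Those of Cdc20 and Ube2c grew, to -1.06 and -1.38. Cdc20 then no longer had the smallest fall among those called, as Spc25 stood at -0.59.

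All 3 cohesion genes fell in KO XEN against WT XEN, with a median of -2.71. Esco2, the acetyltransferase that locks cohesin during replication (ENSMUSG00000022034, chromosome 14, 65819038 to 65833994), stood at 231, 180 and 220 CPM in KO ESC, 47.9 and 56.8 CPM in WT XEN, and 1.60 and 1.85 CPM in KO XEN. It had the smallest adjusted p of the 50 genes in this comparison (-4.91 ± 0.22, 30.0-fold lower, edgeR adjusted p = 5.75e-05), and from KO ESC to KO XEN it fell by 6.91, the largest fall of the 50 there. Sgol1, shugoshin, which shields centromeric cohesin, stood at 109, 80.6 and 97.9 CPM, 33.3 and 49.6 CPM, and 6.17 and 6.83 CPM (-2.67 ± 0.25, edgeR adjusted p = 0.000263). Its 3 groups were apart, as were those of Esco2. Pttg1, securin, the inhibitor of the enzyme that cuts cohesin, stood at 41.0, 22.2 and 19.5 CPM in KO ESC, 45.3 and 36.0 CPM in WT XEN, and 6.97 and 5.57 CPM in KO XEN. KO ESC C4 lay within WT XEN and apart from the line 5-3 libraries. WT XEN against KO ESC did not pass (0.56 ± 0.32, edgeR adjusted p = 0.16), but without KO ESC C4 Pttg1 was higher in WT XEN (0.94, adjusted p = 0.00565). In KO XEN it fell by 2.71 against WT XEN. After the GC and length offset the log2 fold changes against WT XEN were -3.59 for Esco2 and -1.86 for Sgol1.

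All 6 condensation genes fell in KO XEN against WT XEN, with a median of -3.02. Mki67, the proliferation marker Ki-67, which coats mitotic chromosomes (ENSMUSG00000031004, chromosome 7, 135689784 to 135716361), stood at 554, 314 and 334 CPM in KO ESC, 321 and 585 CPM in WT XEN, and 20.3 and 19.0 CPM in KO XEN. WT XEN overlapped KO ESC (0.18 ± 0.31, edgeR adjusted p = 0.639), and KO XEN lay 23.0-fold lower than WT XEN (-4.53 ± 0.40, adjusted p = 0.000218). Top2a, the topoisomerase that untangles sister DNA, had the highest CPM of the 50 in every KO ESC and WT XEN library, at 1220, 760 and 814 CPM, 495 and 739 CPM, and 73.8 and 83.2 CPM. Its log2 fold change against WT XEN was -2.97, and the comparison of WT XEN with KO ESC did not pass (-0.59 ± 0.26, edgeR adjusted p = 0.0739).

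Condensin subunits differed among themselves. Ncapg stood at 197, 143 and 169 CPM in KO ESC, 65.3 and 104 CPM in WT XEN, and 6.75 and 9.69 CPM in KO XEN (-3.35 ± 0.30, edgeR adjusted p = 0.00023), while Ncaph stood at 107, 96.4 and 101 CPM, 63.3 and 68.2 CPM, and 37.5 and 37.6 CPM (-0.81 ± 0.14, adjusted p = 0.00286). Smc2, the motor subunit shared by both condensins, stood at 403, 311 and 387 CPM, 109 and 189 CPM, and 17.6 and 18.2 CPM (-3.06 ± 0.28, edgeR adjusted p = 0.000239). Its partner Smc4 fell alongside it, by 2.92. Smc2 made up 51.5% to 53.4% of the pair's RPKM in KO ESC and between 39.7% and 42.9% in the 4 differentiated libraries. With the GC and length offset the log2 fold changes against WT XEN were -1.96 for Ncapg, -0.68 for Ncaph, -2.01 for Smc2, -1.94 for Smc4 and -2.36 for Top2a. Ncapg and Ncaph, with GC contents of 34.8% and 48.3%, thus lay closer together with the offset, and their difference was not tested.

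All 11 genes of the passenger complex and cytokinesis fell in KO XEN against WT XEN, with a median of -1.81. Of the 11, 8 were lower in WT XEN than in KO ESC, beside 30.3% of all genes tested. The passenger complex, which corrects attachments and then directs cytokinesis, fell as a near-even set. Birc5, survivin, stood at 125, 132 and 137 CPM in KO ESC, 88.6 and 101 CPM in WT XEN, and 24.6 and 22.6 CPM in KO XEN (-2.01 ± 0.15, edgeR adjusted p = 0.000165). Its partners fell by 1.47 (the kinase Aurkb), 1.53 (the scaffold Incenp) and 1.5 (Cdca8, borealin). With the GC and length offset Birc5 stood at -1.81, Aurkb at -1.61, Incenp at -1.93 and Cdca8 at -1.36. Incenp, not Birc5, then had the largest fall of the complex. Over the 7 libraries the share of the complex's RPKM ran from 15.8% to 21.1% for Aurkb, from 34.3% to 37.8% for Incenp, from 15.0% to 19.3% for Cdca8 and from 23.5% to 32.2% for Birc5, which was lowest in KO XEN.

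The 4 kinesins of this group, which work at the central spindle or in late cytokinesis, fell by unequal amounts. Kif4, which shortens the midzone, stood at 94.1, 64.6 and 67.0 CPM in KO ESC, 75.7 and 102 CPM in WT XEN, and 9.44 and 10.9 CPM in KO XEN (-3.12 ± 0.26, edgeR adjusted p = 0.000197). Kif23, the motor of centralspindlin, stood at 195, 165 and 173 CPM, 154 and 244 CPM, and 20.7 and 27.0 CPM (-3.05 ± 0.26, edgeR adjusted p = 0.000202). In neither did WT XEN against KO ESC pass, with log2 fold changes of 0.24 and 0.16. Racgap1, the other subunit of centralspindlin and not among the 50, fell less (-1.14, edgeR adjusted p = 0.00365), and Kif23 made up 53.7% and 61.6% of the pair's RPKM in WT XEN but 25.8% and 28.0% in KO XEN. The KO ESC libraries, at 41.2% to 54.8%, overlapped WT XEN and stood above KO XEN. Kif20b, a kinesin of late cytokinesis, fell by 4.45, from 65.9 and 129 CPM in WT XEN to 3.41 and 5.29 CPM in KO XEN, and Kif20a, which carries Aurkb to the midzone, by 1.29, the smallest fall of the group. Ect2, which activates RhoA at the division plane, was the highest per length (70.5 RPKM in its highest library). It stood at 380, 306 and 371 CPM in KO ESC, 78.0 and 89.3 CPM in WT XEN, and 22.8 and 23.7 CPM in KO XEN. It was 2.08 lower in WT XEN than in KO ESC (SE 0.16, edgeR adjusted p = 2.81e-05), and KO XEN lay lower than WT XEN (-1.85 ± 0.17, adjusted p = 0.000236). Prc1, the midzone bundler, and Anln, the ring scaffold anillin, fell by 1.81 and 1.38. Log2 fold changes with the offset in this group included -3.36 for Kif20b, -1.22 for Prc1, -1.20 for Kif20a and -0.91 for Ect2. Ect2, not Kif20a, then had the smallest fall of the group.

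**Figure D3:**
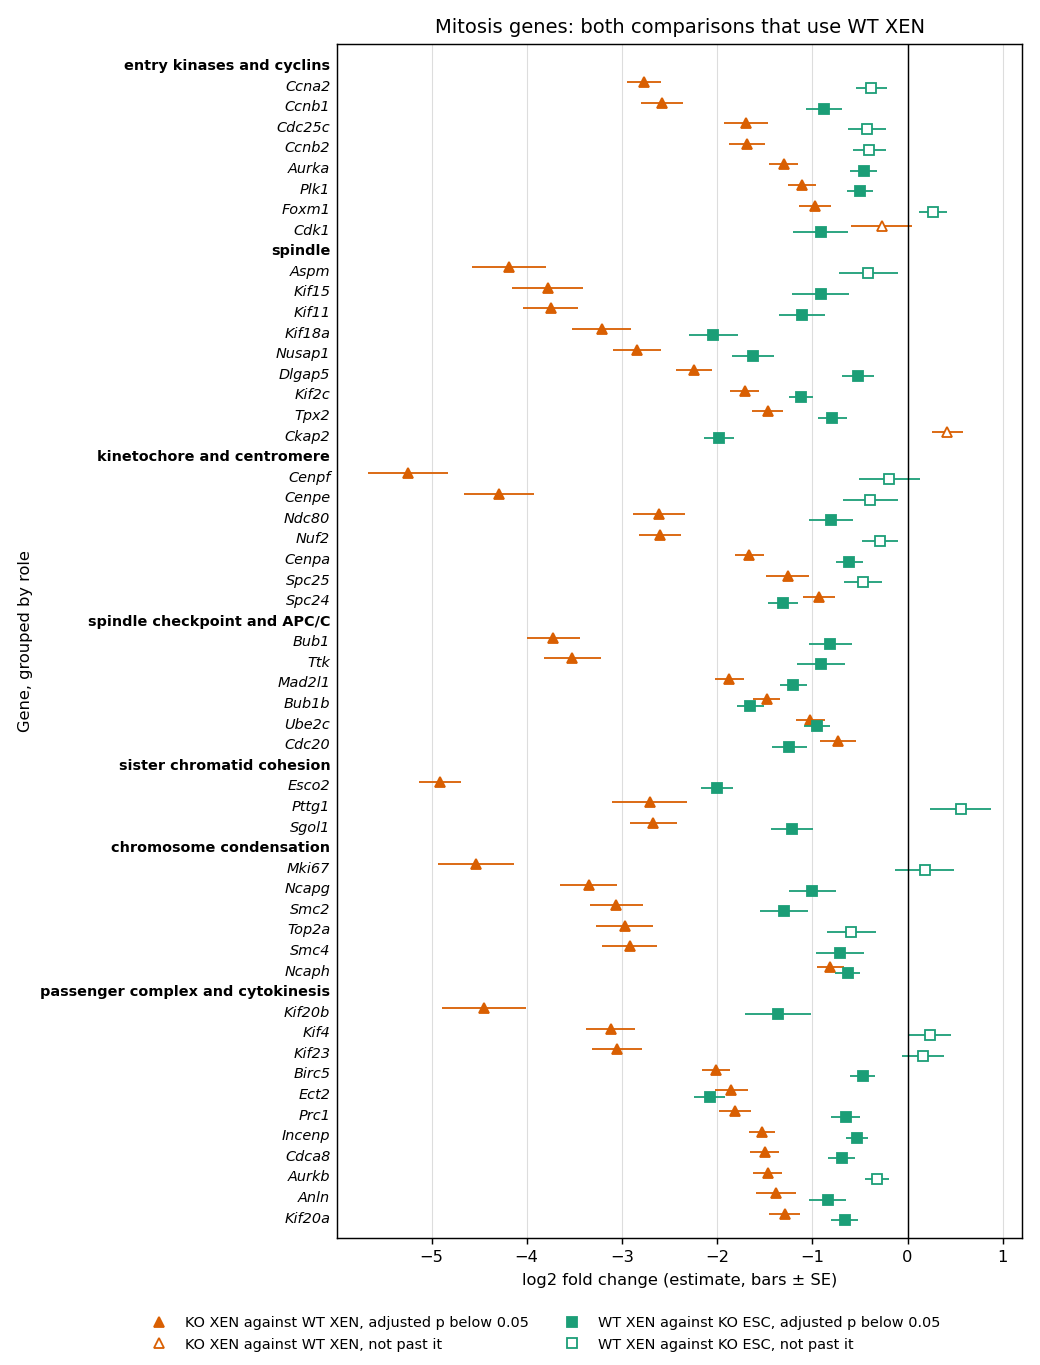
Log2 fold change (estimate ± SE) of each of the 50 genes in KO XEN against WT XEN (triangles) and WT XEN against KO ESC (squares), by role, filled where the adjusted p is below 0.05. The comparisons share the WT XEN libraries. Triangles are filled in all rows but Cdk1 and Ckap2, and squares are filled in 35 rows.

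**Figure D4:**
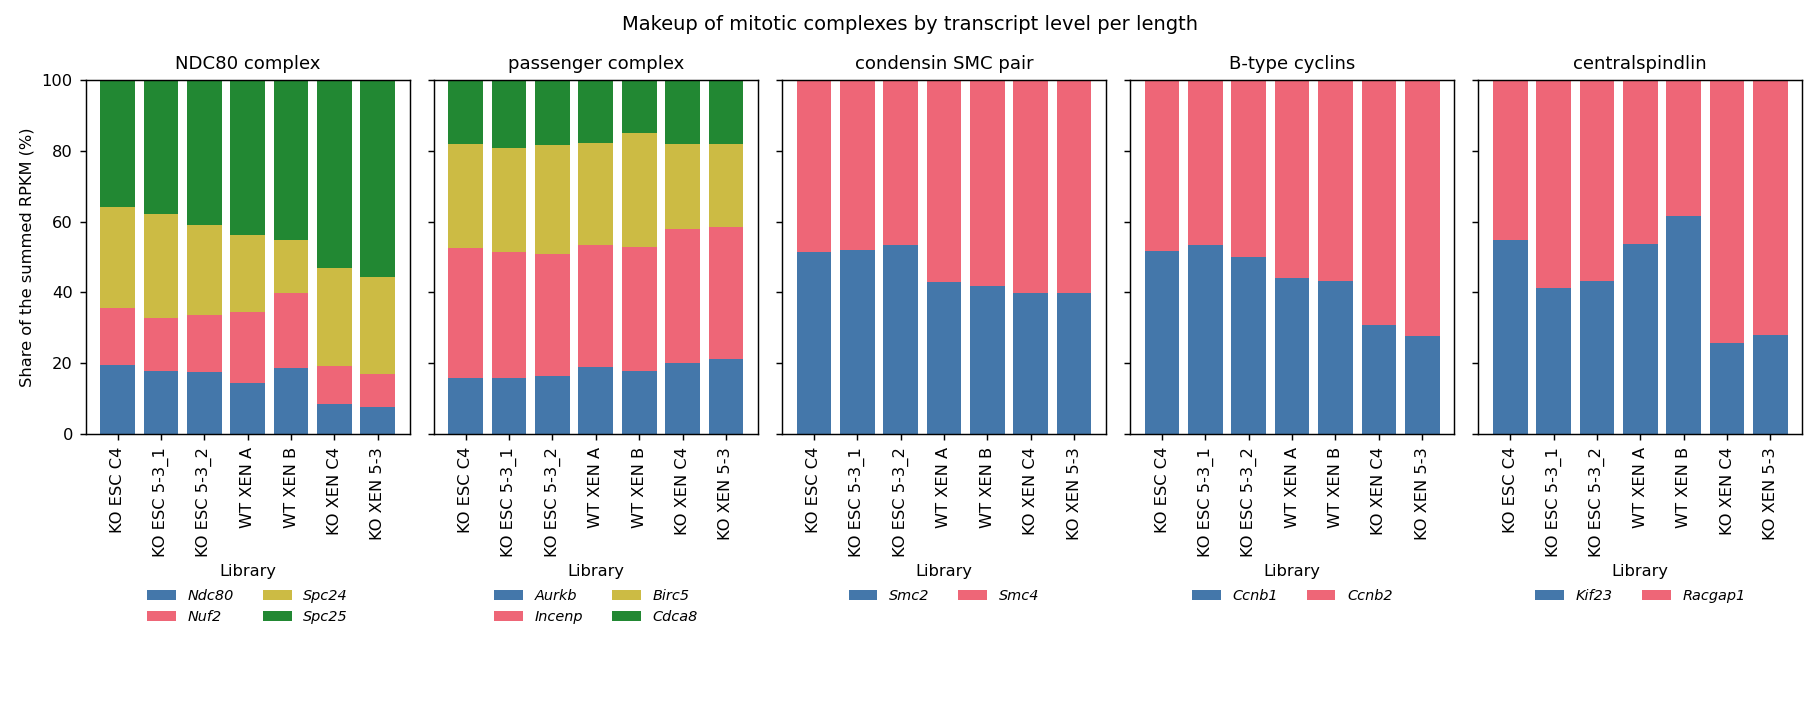
Share of the summed RPKM (percent, vertical axis) that each subunit takes in 5 complexes or pairs, 1 bar for each of the 7 libraries. In KO XEN the shares of Ndc80, Ccnb1 and Kif23 are lowest, at 8.51% and 7.71%, 30.9% and 27.7%, and 25.8% and 28.0%, while the share of Incenp stays between 34.3% and 37.8%.

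The B-type cyclins likewise shifted in makeup. Ccnb1 made up 50% to 53.5% of their summed RPKM in KO ESC, with 44.0% and 43.1% in WT XEN and 30.9% and 27.7% in KO XEN, so the 3 groups did not overlap. These shares were not tested, and the 2 cyclins differ in GC content, 44.2% for Ccnb1 and 49.3% for Ccnb2. With the offset for GC content and length, Ccnb1 fell by 2.08 and Ccnb2 by 1.58 against WT XEN.

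The knockout lines were set side by side gene by gene. The difference of C4 from 5-3 in KO XEN had a median of -0.02 over the 50 genes on the log2(CPM + 0.5) scale, with 23 genes above 0 and 27 below. In KO ESC it was 0.17, with 38 above, and the gap was 0.96 for Pttg1, 0.77 for Mki67, 0.72 for Aspm and 0.70 for Cenpf. The WT XEN libraries differed as much, with B above A in 39 genes and a median of 0.23. An interaction of line and differentiation was called for 0 of the 50 genes and 0 of all genes (edgeR, 2 residual degrees of freedom), the smallest adjusted p over the 50 was 0.495, and 0 of the 50 had an unadjusted p below 0.05. With so few degrees of freedom this fit does not show that the lines acted alike. Cdk1 showed the largest gap between the lines in KO XEN, 0.92 higher in C4.

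A further 133 genes of the same machinery and its regulators fell more often than they rose. In KO XEN against WT XEN, 75 were lower and 13 higher, with a median of -0.75. Of all genes tested, 23.9% were lower and 22.3% higher, the background for each list below. With the offset for GC content and length 71 were lower and 26 higher (all genes 21.8% and 22.6%). Of 30 further kinetochore and centromere genes, 24 were lower and 2 higher (median -1.29). The checkpoint linker Kntc1 fell by 2.91 and Spdl1 by 2.34, whereas Cenpt was higher by 0.99 and Zwint by 1.25. Zwint stood at 140 and 153 CPM in WT XEN and 471 and 226 CPM in KO XEN. Cohesin and its regulators had 12 of 15 lower and 1 higher (median -1.76), led by Sgo2a (-4.51), Stag1 (-2.23) and Wapl (-1.87). The deacetylase Hdac8 was higher (0.89), and the kleisin Rad21 did not pass (-0.30, edgeR adjusted p = 0.339). Of 4 further condensin genes 3 were lower, Ncapg2 by 2.61, Ncapd3 by 1.71 and Ncapd2 by 0.55.

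Further spindle genes had 11 of 19 lower and 0 higher, with Hmmr at -3.22, Haus7 at -2.03 and Ckap2l at -2.30. With the GC and length offset 14 of these 19 were lower and 3 higher, beside 21.8% and 22.6% of all genes. Further cytokinesis genes had 7 of 11 lower and 2 higher, the latter a share near that of all genes tested (22.3%). Cep55 fell by 2.56 and Kif14 by 3.30, and the septin Sept9 (1.24) and the abscission gene Tsg101 (0.56) rose. Further entry and exit genes had 8 of 12 lower and 1 higher, with Nek2 at -2.89, Mastl at -3.82 and Melk at -1.56, and Ensa, a substrate of Mastl, higher by 0.79. Of 21 further checkpoint and APC/C genes, 5 were lower, 3 were higher and 13 did not pass (median 0.15), and the share called lower was near that of all genes tested (23.9%). Those lower included Fbxo5, the APC/C inhibitor Emi1 (-2.98), Trip13 (-1.44) and the subunit Cdc27 (-1.39), and the subunits Anapc16 (1.43), Anapc7 (0.55) and Anapc2 (0.41) were higher. With the GC and length offset 4 of these 21 genes were lower and 6 higher, beside 21.8% and 22.6% of all genes. The difference between these lists was not tested.

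The last list holds 21 DREAM, MuvB, E2F and NF-Y genes. Of these, 5 were lower, 4 higher and 12 did not pass in KO XEN against WT XEN (median 0.08), shares near those of all genes tested (23.9% lower, 22.3% higher), and 7 were lower and 7 higher with the offset for GC content and length. Mybl2, B-MYB, the partner of MuvB in dividing cells, stood at 410, 391 and 339 CPM in KO ESC, 75.6 and 104 CPM in WT XEN, and 9.87 and 9.97 CPM in KO XEN (-3.17 ± 0.21, edgeR adjusted p = 0.000131). Of the MuvB subunits, Lin9 and Lin54 fell, with log2 fold changes of -2.06 and -2.43, Lin37 and Rbbp4 rose, with 0.89 and 0.64, and Lin52 did not pass (-0.10). Rbl2, the pocket protein p130 of DREAM, rose by 1.02, from 11.1 and 13.7 CPM in WT XEN to 26.5 and 23.8 CPM in KO XEN, and its relative Rbl1, p107, fell, with -1.54. E2f5 rose by 0.64, and the NF-Y subunit Nfya fell, with -0.61. E2f4, the main DREAM E2F, stood at a log2 fold change of -0.17 and did not pass (edgeR adjusted p = 0.468).

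**Figure D5:**
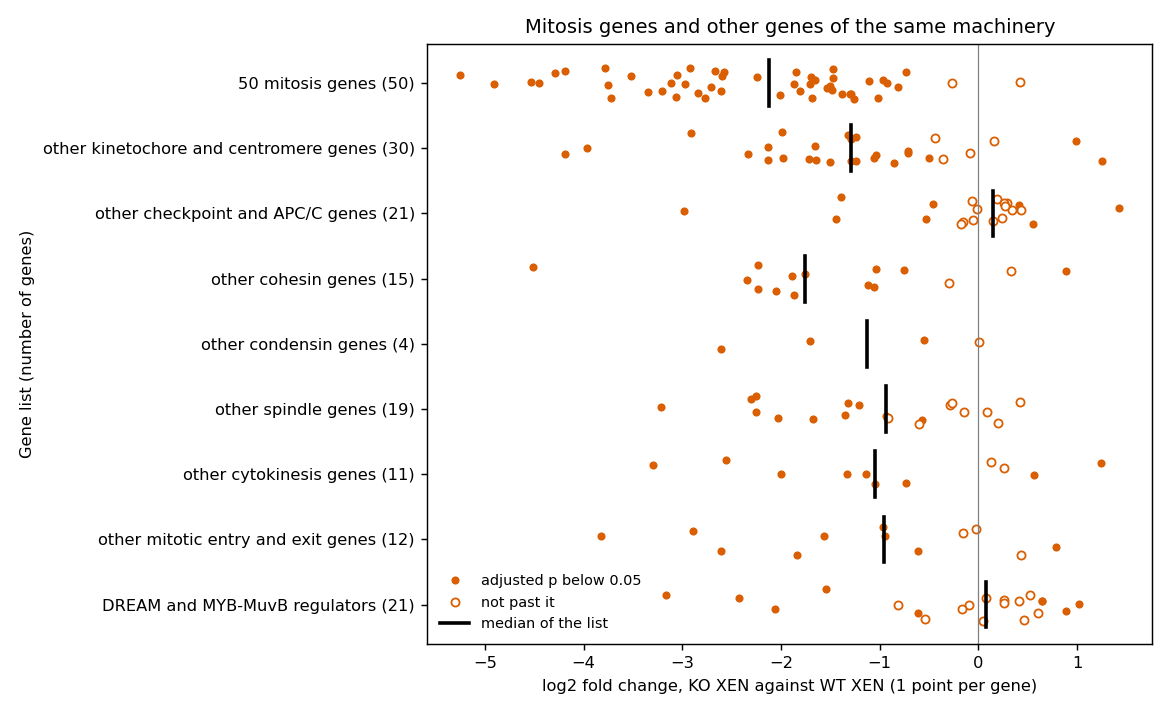
Log2 fold change of KO XEN against WT XEN for the 50 mitosis genes and 8 lists of other genes of the same machinery, 1 point per gene, filled where the adjusted p is below 0.05, with a black bar at each list's median. Medians run from -2.13 for the 50 genes to 0.15 for the other checkpoint and APC/C genes.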

How the data were processed

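The submitters' processing notes name STAR 2.4.2a, featureCounts 1.4.5-p1 and the build mm10. The deposited values are raw read counts for 7 libraries, whole numbers without normalization. Libraries are reverse-stranded per the labels, and the strand setting of the counting is not given in the sources used here. Symbols, positions, exon lengths and GC content came from GENCODE M21 (GRCm38, the assembly of mm10).

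All 7 libraries entered a single edgeR 4.0.16 quasi-likelihood fit in R 4.3.3 with 3 groups, TMM scaling, filterByExpr and Benjamini-Hochberg adjustment over 18426 genes, called below 0.05. The fit was checked on simulated counts. The labels do not say that libraries of a group were separate cultures, so p-values measure the spread between libraries, which may be technical. RPKM is CPM per kilobase of union exon length. Titles pair KO ESC and KO XEN by line. The difference of C4 from 5-3 before and after differentiation correlated across genes with r of 0.0634, and line was a block only in an alternative.

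The members and gene lists were chosen with earlier results of these data known. Every member may be named. Full values are given for the 3 members of each role with the smallest adjusted p in KO XEN against WT XEN. They are also given for those not called or going the other way. Those highest and lowest per length have them too, except Tpx2, Spc25 and Cdc25c. Of other lists, the 3 called genes with the smallest adjusted p and up to 3 in the other direction are named. Other genes were named after their values were seen. A gene that the rule would name is not reported here. Promoters shown hold a CHR within 120 bases before the start. DESeq2 1.42.0, other scalings, no filter, left-out libraries and a per-library loess offset for GC content and length (span 0.5, added after the data were seen) were alternatives.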

Additional observations from a re-analysis of the deposited data

How the results depend on the processing

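Over 16 alternatives in each of 3 comparisons, 2387 of 2400 values of the 50 genes kept their direction. In KO XEN against WT XEN, 48 genes were lower under all settings but 2: 47 without KO XEN 5-3, where Cdc20 lost its call, and 49 without both C4 libraries, where Cdk1 gained one (-0.80). With the GC and length offset 1 gene was called higher (Ckap2), with or without line as a block, and the median was -1.84. Leaving out single libraries gave medians from -2.33 to -1.99. In KO XEN against KO ESC all 50 were lower under every alternative run. Medians there ran from -3.04 to -2.83 over left-out libraries and were -2.59 with the offset and -2.58 with offset and block. In WT XEN against KO ESC, left-out libraries gave 22 to 37 genes lower, 0 to 2 higher and medians from -0.90 to -0.53, with 22 and -0.53 without WT XEN A and -0.90 without WT XEN B. Foxm1 and Pttg1 were the 2 called higher without KO ESC C4, and 2 were higher without both C4 libraries. With offset and block 1 was higher (Pttg1). The offset raised the count of lower genes from 35 to 41, and scaling by library totals alone gave 40. DESeq2 called 48, 50 and 35 genes lower in the 3 comparisons.

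With line as a replicate block, which pairs KO ESC with KO XEN, the counts of lower genes were 48, 50 and 36 and the medians -2.13, -2.89 and -0.71. The block added a call for Ccnb2 in WT XEN against KO ESC and changed no other call of the 50.

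In all, 13 values changed sign. In KO XEN against WT XEN, Cdk1 ran from -0.80 to 0.04 over left-out libraries, the latter without KO XEN 5-3. The others were in WT XEN against KO ESC. Over left-out libraries, Cenpf ran from -0.74 to 0.24, Cenpe from -1.02 to 0.08, Mki67 from -0.31 to 0.58 and Kif23 from -0.20 to 0.49, with the lower value of each without WT XEN B and the higher without WT XEN A. Cenpf stood at 0.06 without KO ESC C4 and 0.08 without both C4 libraries. With the offset, Foxm1, Mki67 and Kif4 stood at -0.16, -0.22 and -0.05, and at -0.19, -0.25 and -0.07 with the block as well. The cause of these shifts was not tested.

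Groups of 2 and 3 libraries leave 4 residual degrees of freedom, and leaving out a library of a pair assumes that the lone library varies like the other groups. Of the 50 genes, 11 overlap a coding gene on the opposite strand, the largest being Cdc23 (37120 reads over the 7 libraries) beside Kif20a (52991 reads). How such reads were divided depends on the strand setting of the counting.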

Other observations

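Among 10248 genes that averaged 10 CPM or more, the genes whose levels on the log2(CPM + 0.5) scale followed the mean of the 50 mitosis genes most closely over the 7 libraries included several outside cell division. The likeness is given by Pearson's r as a description, with no test, since libraries of a group and line share their source, and 124 genes had an r above 0.99. Zfp820, a zinc finger gene, and Lrpprc, which stabilises mitochondrial messenger RNA, both had an r of 0.999, as did 4930430F08Rik and the spindle gene Hmmr. Lrpprc stood at 269, 236 and 248 CPM in KO ESC, 140 and 152 CPM in WT XEN, and 40.3 and 40.4 CPM in KO XEN. The nuclear pore gene Nup160 and the centromere gene Cenpn had an r of 0.998. Nup160 stood at 302, 250 and 280 CPM in KO ESC, 133 and 151 CPM in WT XEN, and 34.7 and 33.8 CPM in KO XEN.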
